A study of Mus musculus with 12 samples.

Results

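The potassium channel genes of this mouse brain series were examined as one family, chosen by symbol and by level. Members are the genes whose symbol starts with Kcn and whose mean over the 12 libraries was at least 1 CPM (counts scaled to a library total of 1000000). Of 21872 gene symbols in the count table, 94 start with Kcn and 76 are members. Of the rest, 17 were below the minimum, among them Kcnk7 at 0.924 CPM and Kcnk5 at 0.917 CPM, and Kcnj13 was left out by the rule. The members just above the minimum were Kcne4 (1.26 CPM), Kcnj14 (1.48), Kcnmb1 (1.52) and Kcnh8 (1.69). Rows holding only multiples of 11 were to be dropped, and no member was such a row.

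The series measured polyadenylated RNA in prefrontal cortex (PFC) and striatum (STR), taken on postnatal day 24 from mice of the C57BL/6J strain. The groups labelled "ADHD" come from the 6-hydroxydopamine (6-OHDA) model of that disorder and are called lesioned here. This toxin enters catecholamine neurons through their uptake systems. The 4 groups are control PFC, lesioned PFC, control STR and lesioned STR, with 3 libraries each and 15078631 to 20925452 counts per library. How and when 6-OHDA was given, its amount and what the controls received are not stated in the labels. They do not tie a group's 3 libraries to 3 animals either, so the p-values rest on a spread that may be technical.

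Potassium channels let potassium leave or enter the cell and so set the resting potential, the shape of the action potential and the firing pattern of a neuron. Voltage-gated Kv channels are built from pore subunits of several families with modifier and cytoplasmic auxiliary subunits, inward rectifiers (Kcnj) and 2-pore-domain leak channels (Kcnk) act near rest, and BK and SK channels open with calcium. In the forebrain, inward rectifiers and A-type Kv channels hold striatal projection neurons at their resting state, Kv3 channels serve fast firing, and the astrocyte channel Kcnj10 takes up extracellular potassium.

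Some striatal libraries stood apart from the rest of their group. The summed level of 15 markers of striatal projection neurons was 4290, 2908 and 4749 CPM in control STR libraries 1 to 3 and 14540, 6203 and 8749 CPM in lesioned STR libraries 1 to 3. Lesioned STR 1 was the highest by far and control STR 2 the lowest. Control STR 2 also held 1055 CPM of 10 cortical excitatory neuron markers, against 177 to 442 CPM in the other 5 striatal libraries, and 2242 CPM of 6 choroid plexus markers, against 29.2 to 73.1 CPM. A list of 10 hypothalamus and basal forebrain markers summed to 89.1 CPM in lesioned STR 1 and to 277 to 688 CPM in the others. Control PFC was uneven too, with 850, 1105 and 1585 CPM of the 15 projection neuron markers in libraries 1 to 3. Markers of oligodendrocytes, 6 genes, summed to 5854, 6945 and 8238 CPM there. In lesioned PFC the 2 sums were 809 to 1101 CPM and 4791 to 6191 CPM. The labelled regions were borne by their markers: in control STR against control PFC, 14 of 15 projection neuron markers were higher and 7 of 10 cortical markers lower in edgeR's quasi-likelihood test, and in the lesioned groups 15 of 15 and 10 of 10. Summed markers of dopamine neurons (Th, Slc6a3, Ddc, Slc18a2) were 10.4 to 17.2 CPM in control PFC and 7.13 to 8.1 CPM in lesioned PFC, and 31.0 to 45.3 and 20.3 to 37.6 CPM in control and lesioned STR. Dopamine cell bodies lie outside both regions, so these levels are no measure of the lesion.

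Levels of the members spanned nearly the whole range of brain transcripts. Per kilobase of exon, a scale that allows genes to be compared, control PFC ranged from 0.109 (Kcnh8) to 80.6 CPM per kb (Kcnab2), with a median of 7.27. Kcnab2, a cytoplasmic beta subunit of Kv1 channels, and Kcnj4, a strong inward rectifier of forebrain neurons, led with 80.6 and 79.2 CPM per kb, a gap smaller than the SD of Kcnab2. Kcnk1, a 2-pore-domain subunit (51.6), Kcnj9, a subunit of G protein-gated channels (46.9), and Kcnf1, a modifier subunit (45.6), followed. In control STR the order was Kcnj10 (65.1 CPM per kb), Kcnab2 (62.1), Kcnip2 (45.4) and Kcnj4 (44.1), and the SDs of neighbouring genes overlapped. Lesioned STR was led by Kcnj4 (72.2) and Kcnip2 (69.5), with SDs that also overlapped. The members together held 0.712 to 0.733% of all counts in control PFC, 0.777 to 0.788% in lesioned PFC, 0.549 to 0.568% in control STR and 0.57 to 0.699% in lesioned STR. In PFC the libraries of a group agreed closely at the members. The median coefficient of variation of a member was 6.85% in control PFC and 4.9% in lesioned PFC. It was 14.4% and 22.9% in STR.

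In the lesioned prefrontal cortex, 12 potassium channel genes were higher than in controls and 2 were lower. The 12 were mostly pore subunits of channels that repolarise the membrane. Among them were Kcna1, Kcna2 and Kcna6 (Kv1), Kcnc1 (Kv3), Kcnq3 (Kv7), Kcnh5 and Kcnh7 (EAG and ERG type) and Kcnma1 (BK), with the astrocyte rectifier Kcnj10 and the beta subunit Kcnab3. The 12 were 1.12 to 1.41 times their control level, while the inward rectifier Kcnj2 fell to 0.55 times and the leak subunit Kcnk1 to 0.852 times. Of 75 members tested (Kcnh8 was too low), 14 were called at an adjusted p below 0.05 by edgeR with Benjamini-Hochberg adjustment over 14018 genes, against 5.73% of all genes. The higher calls were 16% of the members, against 3.45% of all genes, and the lower calls 2.67% against 2.28%. In bulk tissue, fewer cells of a type and less RNA per cell cannot be told apart, so a difference in level is a difference of the tissue.

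The median log2 difference of the 75 members was 0.11, with quartiles of -0.01 and 0.23, and 54 of them (72.0%) were above 0. Over all genes tested the median was -0.005 and 48.4% were above 0. In 28 members every lesioned library was above every control library and in 7 every one was below, 35 of 75 in all. The shares over all genes were 12.3%, 13.7% and 26.1%. Before adjustment 34 members had a p below 0.05, against 20.6% of all genes.

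**Figure D1:**
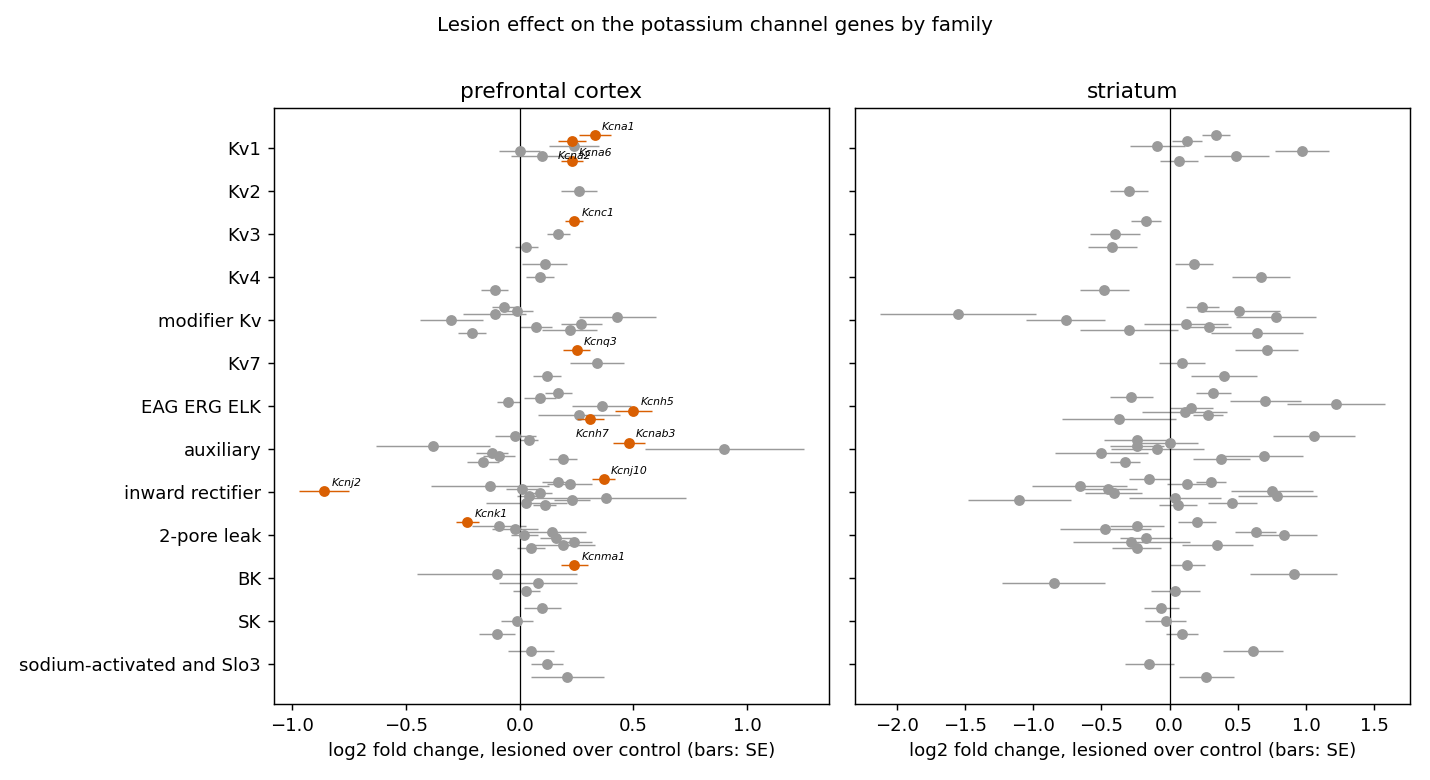
The log2 difference of the tested members described here, lesioned minus control, by channel family (rows) in prefrontal cortex and striatum (panels, with their own axes). Orange points passed the edgeR test and are named, and grey points did not pass. The Kv3 members drawn lie above 0 in prefrontal cortex and below 0 in striatum, where no member passed.

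Kcnj2 had the largest difference among the called members. It encodes a strong inward rectifier that holds neurons and muscle near the potassium equilibrium potential. Kcnj2 (chr11:111066164-111076821, mm10) was at 32.3, 32.7 and 25.6 CPM in the control PFC libraries and at 17.7, 15.2 and 16.9 CPM in the lesioned ones, means of 30.2 ± 3.98 and 16.6 ± 1.29 (SD, n = 3). The lowest control library was well above the highest lesioned one. The log2 difference was -0.86 (SE 0.11, adjusted p = 0.000715 in edgeR), and it ranged from -0.97 to -0.79 with each library left out in turn. Kcnj16, the next gene of the same family on the chromosome, lies 38.2 kb away and differed by 0.01 (SE 0.07), with 32.3, 28.8 and 33.2 CPM in controls and 29.9, 31.4 and 32.9 CPM after lesion. The libraries of Kcnj16 overlapped fully.

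Kcnj10, the main inward rectifier of astrocytes, which clears potassium from the space around neurons, was higher after lesion. Its levels (chr1:172341210-172374085) were 174, 193 and 194 CPM in control PFC and 240, 243 and 239 CPM in lesioned PFC. The lesioned libraries were close together and all above the controls, a log2 difference of 0.37 (SE 0.05, adjusted p = 0.00171 in edgeR). The summed level of 10 astrocyte markers went the other way, from 6416 to 6529 CPM in controls to 5674 to 5809 CPM after lesion, with 6 of the 10 called lower and none at 0 in any group. The part of astrocyte number in the Kcnj10 difference was not tested. Its neighbour Kcnj9, 11.9 kb away, differed by 0.11 (SE 0.05) and was not called.

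Among the Kv3 subunits, which close fast and permit high firing rates, Kcnc1 (chr7:46396497-46438704) was at 216, 212 and 225 CPM in control PFC and at 263, 248 and 255 CPM after lesion. All lesioned libraries were above all controls, and the log2 difference was 0.24 (SE 0.04, adjusted p = 0.00807 in edgeR). Kcnc2 and Kcnc4 of the same family had log2 differences of 0.17 and 0.03 and did not pass. The summed level of 5 genes of inhibitory neurons (Pvalb, Gad1, Gad2, Lhx6 and Sst) was 722 to 749 CPM in control PFC and 749 to 779 CPM after lesion, with a median log2 difference of 0.03 and none at 0. Of the 5, Pvalb is the marker of fast-spiking cells, and it was at 28.8, 28.9 and 31.6 CPM in controls and at 32.0, 28.9 and 36.1 CPM after lesion, with overlap. The part of these cells in the Kcnc1 value was not tested.

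The Kv1 family holds low-threshold channels of axons and their terminals, and 3 of its 6 members were called higher, against 3.45% of all genes. Kcna1 (chr6:126640397-126646384) was at 78.8, 97.6 and 93.5 CPM in control PFC and at 110, 108 and 119 CPM in lesioned PFC. Kcna2 (chr3:107101146-107115005) was at 397, 456 and 405 CPM in controls and at 476, 491 and 507 CPM after lesion. Kcna6 (chr6:126708329-126740674) was at 128, 134 and 133 CPM in controls and at 154 CPM in each lesioned library. None of the 3 genes overlapped between the groups. Their log2 differences in edgeR were 0.33 (SE 0.07, adjusted p = 0.0214), 0.23 (SE 0.06, adjusted p = 0.0348) and 0.23 (SE 0.05, adjusted p = 0.0119), in that order. With each of the 6 libraries left out in turn, Kcna6 was called in 4 fits (lost without lesioned PFC 2 or 3) and Kcna1 in 2 (lost without any lesioned library or control PFC 1). Kcna2 was called in 1 of the 6, that without control PFC 2. The antisense gene Gm26673 overlaps 39.6% of the exon length of Kcna6, so its counts may hold reads of both, since the labels do not say whether counting used the strand. Kcna4, the A-type subunit of the family, was at 19.4, 17.1 and 20.2 CPM in controls and at 17.6, 18.9 and 19.9 CPM after lesion, and these libraries overlapped.

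Of the auxiliary subunits, Kcnab3, a beta subunit of Kv1 channels, was the one called member of 9. It was at 43.8, 41.3 and 46.4 CPM in control PFC and at 57.1, 57.8 and 68.1 CPM in lesioned PFC, without overlap (chr11:69326258-69333042; log2 difference 0.48, SE 0.07, adjusted p = 0.00278 in edgeR). Kcnab1, another beta subunit, was at 75, 88.9 and 105 CPM in controls and at 85.8, 84.8 and 92.1 CPM after lesion, inside the control range. Kcnip2, a calcium-binding partner of Kv4 channels, had a log2 difference of -0.09 (SE 0.07), and Kcnd2, a Kv4 pore subunit, of 0.09 (SE 0.06). Neither was called, and both overlapped between the groups.

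Kcnh5, an EAG-type channel, was among the members with the largest rise. It was at 28.3, 30.7 and 25.9 CPM in control PFC and at 39.1, 38.5 and 42.0 CPM in lesioned PFC (chr12:74897220-75177332). Kcnh7, an ERG-type channel, was at 216, 246 and 221 CPM in controls and at 275, 288 and 279 CPM after lesion (chr2:62693414-63184287). The groups of both genes were apart. The log2 differences were 0.50 (SE 0.08, adjusted p = 0.00319 in edgeR) and 0.31 (SE 0.06, adjusted p = 0.00838).

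Kcnq3, a Kv7 subunit of the M-current, which dampens repeated firing, was higher as well. Kcnq3 (chr15:65986387-66286642) was at 297, 341 and 306 CPM in control PFC and at 352, 377 and 392 CPM after lesion. All its lesioned libraries were above all controls, by 0.25 (SE 0.06, adjusted p = 0.0301 in edgeR) on the log2 scale. Kcnma1, the pore of the BK channel (chr14:23289431-24014491), was at 394, 456 and 416 CPM in controls and at 481, 492 and 513 CPM after lesion. That difference of 0.24 (SE 0.06, adjusted p = 0.0314) was again without overlap. Kcnma1 was called in 1 of the 6 fits with a library left out, that without control PFC 2, and Kcnq3 in 2, those without control PFC 2 or lesioned PFC 1.

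Kcnk1, a 2-pore-domain subunit with weak conductance (chr8:125995170-126030685), was the other gene that fell. It was at 109, 117 and 120 CPM in control PFC and at 98.5, 95.2 and 99.6 CPM in lesioned PFC, all below the controls (log2 difference -0.23, SE 0.05, adjusted p = 0.0214 in edgeR). Its call was lost without any 1 of the lesioned libraries, with an adjusted p of up to 0.124, and its difference stayed between -0.27 and -0.21. The other 8 members of that family were not called, and the highest of their differences was 0.24 (Kcnk4). Kcnk2, a mechanically gated member, had a log2 difference of 0.02 (SE 0.06). The SK family, whose small-conductance channels shape the after-hyperpolarisation, had differences of -0.1 to 0.1, with Kcnn2 at -0.01 (SE 0.07). The subunits of G protein-gated rectifiers had differences of 0.09 for Kcnj3 (SE 0.05) and 0.23 for Kcnj6 (SE 0.08), and Kcnj4 of 0.04 (SE 0.05).

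No modifier, Kv4, SK or sodium-activated member was called in PFC. The log2 differences of the 9 modifier subunits ran from -0.30 to 0.43 with 4 above 0, those of the 3 Kv4 members from -0.11 to 0.11, and those of the sodium-activated channels with Slo3 from 0.05 to 0.21. Of the 12 inward rectifiers, Kcnj2 and Kcnj10 included, 10 were above 0. Of the 9 auxiliary subunits, Kcnab3 included, 4 were above 0, with a range of -0.38 to 0.90.

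**Figure D2:**
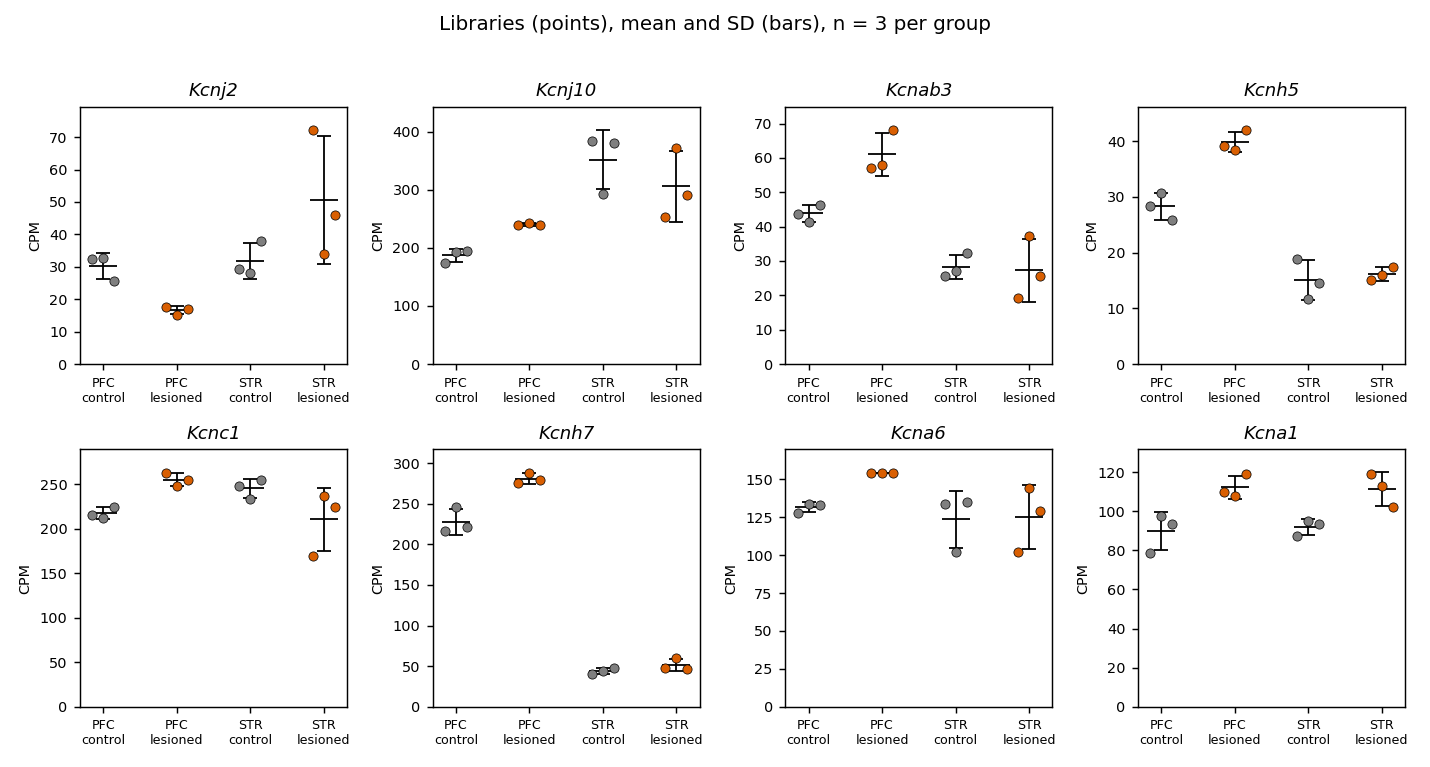
CPM of 8 called members in each library (points) with the mean and SD of the 3 libraries (bars), for control (grey) and lesioned (orange) prefrontal cortex (PFC) and striatum (STR). In prefrontal cortex the groups do not overlap in any of the 8 panels: Kcnj2 is lower after lesion and the other 7 are higher, while the striatal points spread more widely.

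The calls in prefrontal cortex rested on the small spread between its libraries. The common biological coefficient of variation was 5.78% in the fit of the 6 PFC libraries and 11.32% in a fit of all 12 libraries with 1 shared spread. In that fit edgeR called 0 members in PFC, against 0.206% of all genes. There 14 members had an unadjusted p below 0.05, a count whose share of all genes is not given here. The log2 differences themselves hardly moved there, with -0.85 for Kcnj2, 0.38 for Kcnj10, 0.34 for Kcna1, 0.50 for Kcnab3 and 0.25 for Kcnc1. With each PFC library left out in turn, 6 to 21 members were called: 8, 6 and 7 without lesioned libraries 1, 2 and 3, and 10, 21 and 10 without control libraries 1, 2 and 3. The shares of all genes with a library left out are not given here, so these counts are no result about the members in particular. Kcnj2, Kcnj10, Kcnab3 and Kcnh5 were called in all 6 fits with a library left out. Kcnc1 lost its call without lesioned PFC 1 and Kcnh7 without lesioned PFC 2.

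The 12 higher members were long and abundant: their median exon length was 7.73 kb and their median level 192 CPM, against 4.29 kb and 32.9 CPM for the 61 that were not called and 4.6 kb and 28.3 CPM for all genes. With each library corrected for GC content and length, 10 members were called (8 higher, 2 lower), against 5.76% of all genes. Kcna2, Kcnma1 and Kcnq3 were among the 4 that were lost. The member median was 0.11 with the correction as without it.

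The proximal promoters of called members are shown because these genes moved in opposite directions. RefSeq promoters (GRCm38.p6) were matched for 54 of the 76 members, 77 promoters in all. The 250 bases before the start are given 5′ to 3′ on the gene's strand for Kcnj2 (chr11:111065914-111066163, plus strand) and Kcnk1 (chr8:125994852-125995101, plus), which fell, and for Kcnj10 (chr1:172340960-172341209, plus) and Kcnh5 (chr12:75177333-75177582, minus), which rose. Capitals mark a GC box (GGGCGG or its complement CCGCCC) or a cyclic AMP response element core (TGACG or its complement CGTCA).
Kcnj2: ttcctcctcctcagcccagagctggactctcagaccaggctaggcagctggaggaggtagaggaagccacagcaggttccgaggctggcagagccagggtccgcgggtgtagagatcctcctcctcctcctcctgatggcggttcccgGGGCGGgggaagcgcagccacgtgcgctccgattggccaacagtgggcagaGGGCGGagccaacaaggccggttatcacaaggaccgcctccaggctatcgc
Kcnk1: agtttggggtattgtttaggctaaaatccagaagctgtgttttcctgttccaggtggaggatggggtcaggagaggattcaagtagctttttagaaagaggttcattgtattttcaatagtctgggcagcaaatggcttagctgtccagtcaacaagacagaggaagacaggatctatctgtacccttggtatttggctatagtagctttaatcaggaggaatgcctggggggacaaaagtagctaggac
Kcnj10: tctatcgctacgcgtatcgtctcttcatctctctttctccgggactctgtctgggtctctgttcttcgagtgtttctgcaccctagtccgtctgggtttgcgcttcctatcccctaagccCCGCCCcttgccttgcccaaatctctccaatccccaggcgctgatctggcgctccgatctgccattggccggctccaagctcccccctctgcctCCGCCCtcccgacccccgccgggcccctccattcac
Kcnh5: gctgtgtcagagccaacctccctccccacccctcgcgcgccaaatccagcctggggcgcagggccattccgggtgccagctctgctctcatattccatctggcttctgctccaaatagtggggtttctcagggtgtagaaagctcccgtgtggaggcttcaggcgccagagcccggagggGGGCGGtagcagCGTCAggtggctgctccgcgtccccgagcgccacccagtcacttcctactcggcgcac
The Kcnj2 and Kcnj10 windows hold 2 GC boxes each, the Kcnh5 window holds 1 GC box and 1 TGACG core, and the Kcnk1 window holds neither. In windows of 250 bases, read on both strands, the GC box was in 46.8% of member promoters and 32.7% of all 32851 promoters, and the TGACG core in 14.3% and 17.8%. The full element TGACGTCA was in 1.55% of all promoters and in none of the members', and TATAAA in 12.4% of all and 2.6% of members'. The median GC content was 60.0% in member promoters and 52.4% in all.

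In the lesioned striatum the log2 differences of the potassium channel genes ran in both directions, and none passed the test. Kcna4, Kcnab1, Kcnk2, Kcnd2, Kcnh4 and Kcnq3, which form or assist A-type, leak, ELK-type and M-type channels, had log2 differences of 0.67 to 1.22. Kcng2, a modifier subunit, had the largest difference of all, -1.55, and Kcnj6, a subunit of G protein-gated channels, had one of -1.10. By edgeR on the 6 striatal libraries 0 of 76 members were called, against 0.028% of all genes, and 26 (20 higher, 6 lower) had an unadjusted p below 0.05, against 17.3%. DESeq2 called 5 members (3.7% of all genes), limma-voom with sample weights 1 (2.18%) and the edgeR fit of all 12 libraries 9 (7.15%). Kcna4 was called by all 3 of these, and Kcnab1, Kcnh4, Kcnk13 and Kcnk2 by DESeq2 and the 12-library fit. RLE factors, limma-voom without weights, the replicate block and the GC and length correction each called 0. The common biological coefficient of variation was 14.85% in the 6 striatal libraries. The 12-library fit used a shared 11.32%, smaller than the striatal spread.

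Kcna4, an A-type Kv1 subunit that delays the first spike, had the smallest p among the members. It was at 28.9, 32.3 and 35.5 CPM in control STR and at 75.5, 48.8 and 56.0 CPM in lesioned STR. All lesioned libraries were above all controls, with lesioned STR 1 the highest, and the log2 difference was 0.97 (SE 0.20, adjusted p = 0.155 in edgeR). Without lesioned STR 1 the difference was 0.72, and without that library and control STR 2 it was 0.73.

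Kcnab1, the beta subunit that gives Kv1 channels inactivation, was at 174, 157 and 186 CPM in control STR and at 499, 230 and 289 CPM in lesioned STR. The libraries did not overlap, and lesioned STR 1 was far above the other two. The log2 difference of Kcnab1 was 1.06 (SE 0.30, adjusted p = 0.188 in edgeR) and 0.61 without lesioned STR 1. Kcnk2 was at 83.8, 70.6 and 87.8 CPM in controls and at 186, 105 and 121 CPM after lesion, a difference of 0.84 (SE 0.24, adjusted p = 0.19) and of 0.51 without lesioned STR 1. Kcnd2, an A-type Kv4 pore subunit, was at 127, 119 and 130 CPM in controls and at 247, 147 and 174 CPM after lesion, a difference of 0.67 (SE 0.21) and of 0.38 without lesioned STR 1. The groups did not overlap in either gene.

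Kcnip2, the Kv4 partner, was at 147, 181 and 144 CPM in control STR and at 344, 163 and 217 CPM in lesioned STR. Lesioned STR 2 lay inside the control range, and the log2 difference was 0.69 (SE 0.29, adjusted p = 0.28 in edgeR), or 0.29 without lesioned STR 1. Among the strong inward rectifiers, Kcnj2 was at 29.2, 28 and 38.1 CPM in controls and at 72.2, 33.8 and 45.9 CPM after lesion, and Kcnj4 was at 94.2, 86.6 and 104 CPM in controls and at 221, 99.7 and 146 CPM after lesion. Both overlapped between the groups through lesioned STR 2. Their log2 differences were 0.75 (SE 0.30) and 0.79 (SE 0.29), and without lesioned STR 1 they were 0.35 for Kcnj2 and 0.39 for Kcnj4.

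Kcnk13, a leak channel found in microglia, had the second smallest p. It was at 6.94, 6.45 and 8.4 CPM in control STR and at 9.6, 12.7 and 10.1 CPM in lesioned STR. Here lesioned STR 2 was the highest, the groups did not overlap, and the log2 difference of Kcnk13 was 0.63 (SE 0.15, adjusted p = 0.181 in edgeR) and 0.67 without lesioned STR 1. The summed level of 5 microglial markers was 198 to 242 CPM in control STR and 240 to 295 CPM in lesioned STR, with a median log2 difference of 0.27 and none at 0, and its part in the Kcnk13 value was not tested.

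Kcnj6, which pairs with Kcnj3 and Kcnj9 in G protein-gated channels, was at 15.6, 34.4 and 16.7 CPM in control STR and at 5.96, 13.9 and 10.4 CPM in lesioned STR. Control STR 2 was the highest and lesioned STR 1 the lowest, without overlap. The log2 difference of Kcnj6 was -1.10 (SE 0.38, adjusted p = 0.23 in edgeR), and it was -0.63 without control STR 2 and -0.38 without both of those libraries. Kcng2 was at 9.13, 22.4 and 6.99 CPM in controls and at 1.55, 4.95 and 6.29 CPM after lesion, with the same 2 libraries at the ends. Its difference of -1.55 (SE 0.57, adjusted p = 0.243) was -0.86 without control STR 2 and -0.49 without both. Kcnip4, a Kv4 partner, was at 62.5, 52.9 and 63.9 CPM in controls and at 36.9, 49.9 and 50.2 CPM after lesion, lower in every library, with a difference of -0.33 (SE 0.11).

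Of the Kv3 family, Kcnc1, Kcnc2 and Kcnc4 had log2 differences of -0.17, -0.40 and -0.42, and none was called. Without lesioned STR 1 these were -0.07, -0.22 and -0.22. Kcnc2 was at 91.9, 89.5 and 94.5 CPM in control STR and at 45.6, 87.6 and 68.6 CPM in lesioned STR. The groups of Kcnc2 did not overlap, and the lowest library was lesioned STR 1. Kcnc1 was at 248, 234 and 255 CPM in controls and at 170, 237 and 225 CPM after lesion, and these overlapped. Kcnq3 was at 231, 249 and 244 CPM in controls and at 505, 281 and 343 CPM after lesion, a log2 difference of 0.71 (SE 0.23) and of 0.39 without lesioned STR 1. Kcnh4, an ELK-type channel, was at 16.5, 11.5 and 20 CPM in controls and at 51.4, 20.8 and 33.5 CPM after lesion, the largest positive difference (1.22, SE 0.36), and it was 0.78 without lesioned STR 1.

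In several other families the striatal log2 differences lay on both sides of 0. The 12 inward rectifiers ran from -1.10 to 0.79 with 7 above 0, the 9 leak channels from -0.47 to 0.84 with 4 above 0, and the 9 modifier subunits from -1.55 to 0.78 with 6 above 0. The 3 SK members were closer together, from -0.06 to 0.09, with Kcnn2 at 37.3, 47.3 and 30.8 CPM in controls and at 34.0, 38.7 and 36.0 CPM after lesion, inside the control range. Kcnmb1, the beta subunit of BK channels in smooth muscle, was at 2.0, 1.23 and 1.57 CPM in controls and at 1.73, 3.87 and 3.14 CPM after lesion, and overlapped.

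**Figure D3:**
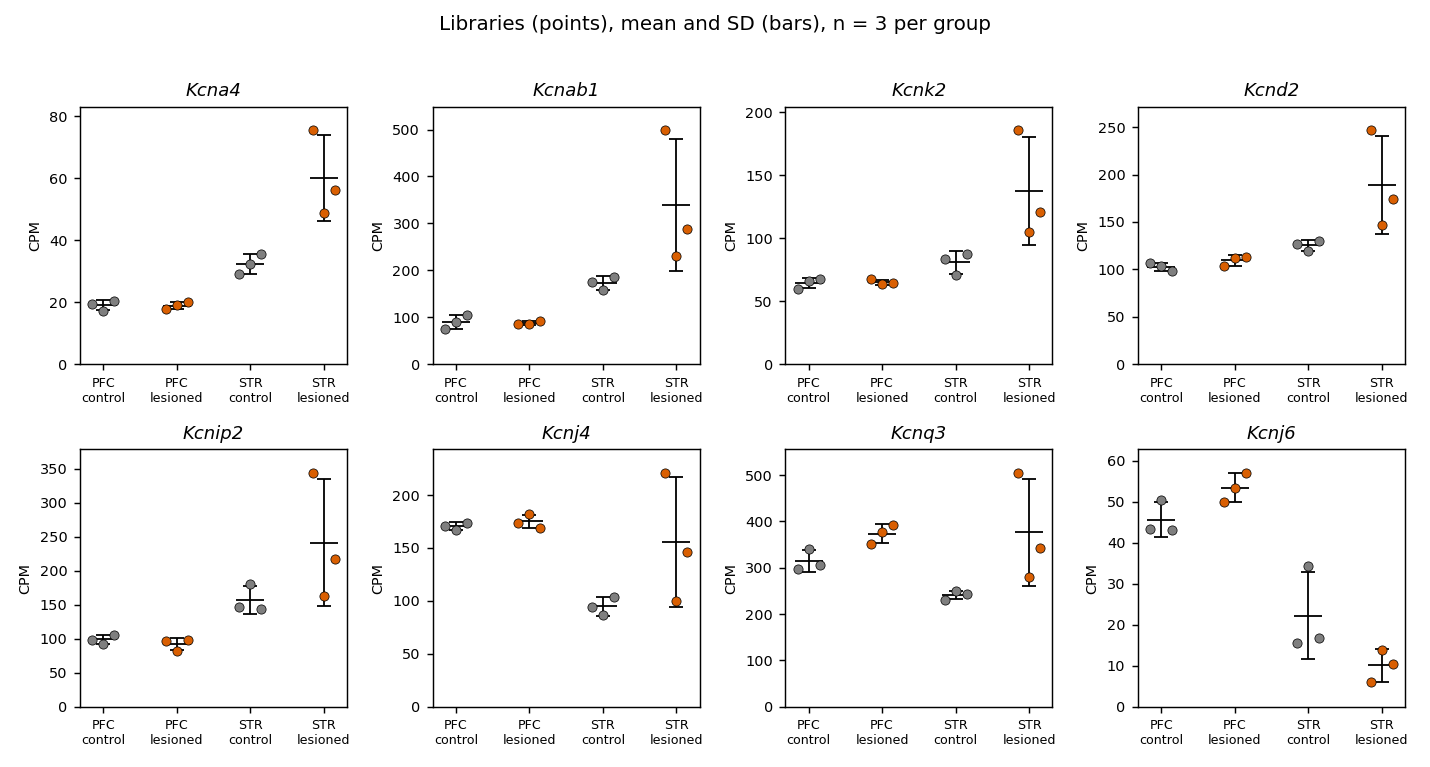
CPM of 8 members with named striatal differences in each library (points) with the mean and SD of the 3 libraries (bars), for control (grey) and lesioned (orange) prefrontal cortex (PFC) and striatum (STR). In lesioned striatum 1 library stands above the other 2 in the first 7 panels and lowest in Kcnj6.

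The members' median difference in striatum was 0.10, with quartiles of -0.25 and 0.42, against -0.004 over all genes, and 57.9% were above 0 against 49.3%. Groups did not overlap in 17 members, 10 higher and 7 lower. The shares of all genes were 26.4% for any direction, 8.8% higher and 17.6% lower. The order of the lesioned libraries in Kcna4, Kcnab1, Kcnk2, Kcnd2, Kcnip2, Kcnj2, Kcnj4 and Kcnq3 (1 highest, then 3, then 2) was that of the summed projection neuron markers. Kcna1 and Kcnk13 had other orders. How many members, or how many of all genes, share the marker order is not given here. None of the 15 markers was at 0 in any group, and their median log2 difference was 1.28. The part of the dissected cells in these values was not tested. With lesioned STR 1 and control STR 2 both left out, edgeR called 0 of 76, with 24 at an unadjusted p below 0.05. The share of all genes in that fit is not given here.

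**Figure D4:**
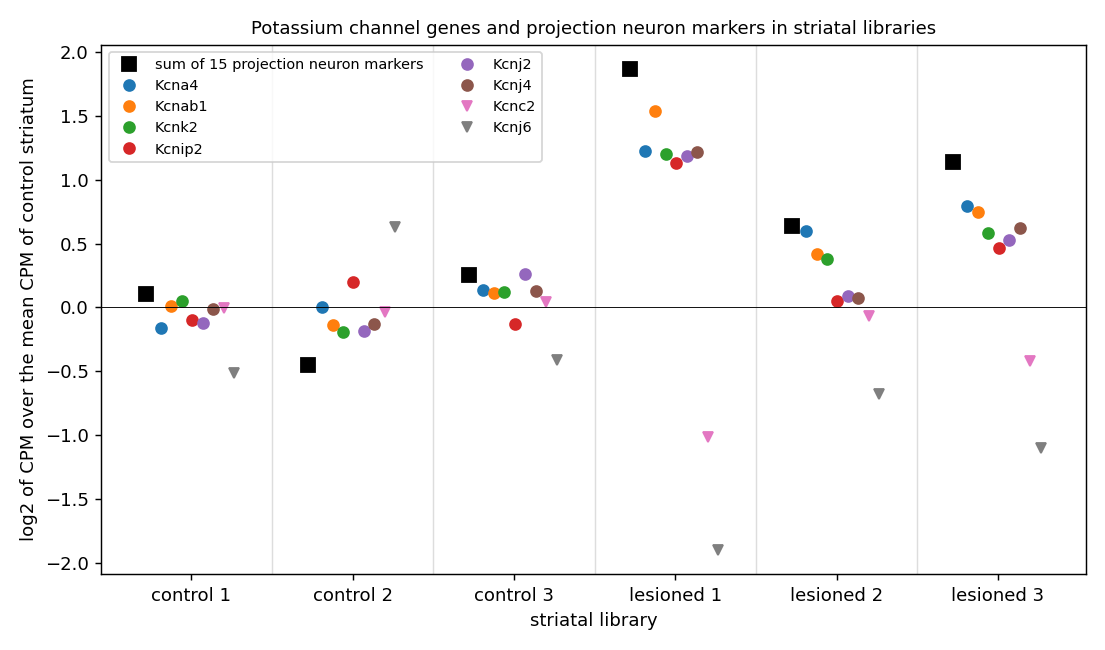
Log2 of the CPM over the mean CPM of control striatum in each striatal library for 8 members (coloured) and for the sum of 15 projection neuron markers (black squares). Lesioned library 1 has the highest marker sum (14540 CPM) and the largest departures of the 8 genes, and control library 2 has the lowest marker sum (2908 CPM).

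Whether the lesion difference itself differed between the regions was tested as an interaction over all 12 libraries. By edgeR 0 of 76 members passed, against 0.0825% of all genes, and 22 had an unadjusted p below 0.05, against 11.7%. Kcnj2 had the smallest p, with an interaction of 1.60 on the log2 scale (SE 0.35, adjusted p = 0.198): it was lower in all lesioned PFC libraries and not in STR. Kcna4 followed with 0.96 (SE 0.23, adjusted p = 0.224), then Kcnc1 with -0.41 (SE 0.12), Kcnj6 with -1.32 (SE 0.40), Kcnb2 with -0.56 (SE 0.17) and Kcnab1 with 1.07 (SE 0.34).

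Some other fits of the interaction called members and some did not. Limma-voom without weights or with group weights, RLE factors, the replicate block and the GC and length correction each called 0. The edgeR interaction fit used 1 shared spread of 11.32%, below the 14.85% of the striatal libraries alone. DESeq2 called Kcnj2 and Kcna4, against 0.798% of all genes, and limma-voom with sample weights called these with Kcnj10, Kcnc1 and Kcnc2, against 0.591%. With lesioned STR 2 left out edgeR called 6 members (Kcna4, Kcnab1, Kcnc2, Kcnh3, Kcnj2 and Kcnj4). With lesioned STR 1 and control STR 2 both out it called 4, with Kcna4, Kcnj2 and Kcnv1 among them. The shares of all genes in these 2 fits are not given here, so the 6 and 4 are no result about the members in particular. The interactions of Kcnc1, Kcnc2 and Kcnc4 were -0.41, -0.57 and -0.46. Without lesioned STR 1 the interaction of Kcnj2 was 1.21 and that of Kcna4 was 0.72.

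The regions themselves differed in most members, and more often toward lower levels in striatum. In control STR against control PFC, 50 of 76 members were called by edgeR, against 42.3% of all genes. Of these, 36 (47.4%) were lower and 14 (18.4%) higher, against 21% and 21.3% of all genes. The median log2 difference of the members was -0.37, against 0.017 over all genes. In the lesioned groups, which share no library with the controls, 53 were called against 45.2% of all genes, 38 lower and 15 higher against 22.5% and 22.7%.

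The members lower in striatum included the modifier subunits, which are silent alone and tune Kv2 channels: 7 of 9 were called lower in controls. One of the 7, Kcns3, was called in 1 of 6 edgeR fits with a library left out, with an adjusted p of up to 0.115. In the lesioned groups 5 of 9 were called lower, against 22.5% of all genes. Kcnv1 was at 160, 178 and 168 CPM in control PFC and at 19.2, 41.2 and 28.3 CPM in control STR, 6.34 times lower (log2 difference -2.66, SE 0.23). Kcnf1 was at 212, 229 and 214 CPM in PFC and at 76.9, 70.4 and 88.4 CPM in STR (-1.63, SE 0.09). Neither gene overlapped between the regions, and both passed with an adjusted p of 8.04e-05 or below in edgeR.

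Kcnh7 had the smallest p of the members. It was at 216, 246 and 221 CPM in control PFC and at 40.3, 43.6 and 48.2 CPM in control STR, 5.75 times lower (log2 difference -2.52, SE 0.09, adjusted p = 3.69e-06 in edgeR). Its relative Kcnh3 was at 229, 202 and 213 CPM in PFC and at 68.2, 76.2 and 67.4 CPM in STR (-1.76, SE 0.07). Of the G protein-gated subunits, Kcnj3, Kcnj6 and Kcnj9 were called lower, and Kcnj5 was called higher. Kcnj9 was at 193, 195 and 215 CPM in PFC and 50.5, 71.4 and 64.4 CPM in STR (-1.85, SE 0.12). Kcnmb4, the neuronal beta subunit of BK channels, was at 82.9, 76.1 and 81.6 CPM in PFC and at 24.5, 32.1 and 25.2 CPM in STR (-1.71, SE 0.11). Kcnk4, a mechanically gated leak channel, was at 22.2, 19.6 and 19.9 CPM in PFC and at 2.69, 6.21 and 2.22 CPM in STR (-2.63, SE 0.31), and its difference was -3.23 without control STR 2, the library with cortical markers. Kcns1 differed by -1.49 (SE 0.26). The libraries of the 2 regions were apart in every one of these genes.

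The members higher in striatum were fewer and of lower level, with a median of 31.1 CPM against 69.8 CPM for the lower ones. Kcnj5, Kcnh8 and Kcnmb1 were below 1 CPM in both PFC groups and meet the minimum for members through their striatal levels, so their place among the higher members is partly set by that rule. Kcnj5, a G protein-gated subunit, was at 0.526, 0.663 and 0.531 CPM in control PFC and at 6.07, 3.2 and 5.36 CPM in control STR, 7.59 times higher (2.92, SE 0.32). Kcna5 was at 5.02, 4.58 and 5.11 CPM in PFC and at 30.7, 17.0 and 25.7 CPM in STR (2.16, SE 0.21). Kcnh8, at 0.573, 0.181 and 0.73 CPM in PFC and 3.69, 2.09 and 4.28 CPM in STR, differed by 2.60 (SE 0.44), with 3 to 12 counts in each PFC library. Every striatal library was above every PFC library in these genes.

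Kcnn3, a small-conductance calcium-activated channel, was at 25.1, 26.1 and 24.4 CPM in control PFC and at 84.0, 61.1 and 70.5 CPM in control STR (1.36, SE 0.11). Kcne1l, a single-pass auxiliary subunit, differed by 1.71 (SE 0.22), Kcnab1 by 0.79 (SE 0.12), Kcnh2 by 0.77 (SE 0.13) and Kcnj10 by 0.76 (SE 0.11). Their libraries did not overlap either, and all were called by edgeR with an adjusted p of 0.00165 or below.

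By family, 5 of 9 leak channels, 5 of 12 inward rectifiers and 4 of 8 EAG, ERG and ELK channels were called lower in control STR, against 21% of all genes. Members of the same families were called higher too: Kcnk13, Kcnj5, Kcnj10, Kcnj14, Kcnh2 and Kcnh8. The call of Kcnj14 was lost with any 1 library left out. The auxiliary subunits were divided, with Kcne1l, Kcnab1, Kcnip2 and Kcnip1 called higher and Kcnip3, Kcnab3 and Kcnip4 called lower. Of the Kv1 family Kcna5 and Kcna4 were called higher and Kcna2 lower. Neighbouring genes of a cluster differed: Kcnj9 and Kcnj10 had -1.85 and 0.76, and Kcna5 had 2.16 beside -0.12 for Kcna1 and -0.25 for Kcna6. Kcnc2 and Kcnc4 were called lower in STR in both comparisons, and Kcnc1 in the lesioned groups, a call lost without lesioned PFC 1 or 3.

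**Figure D5:**
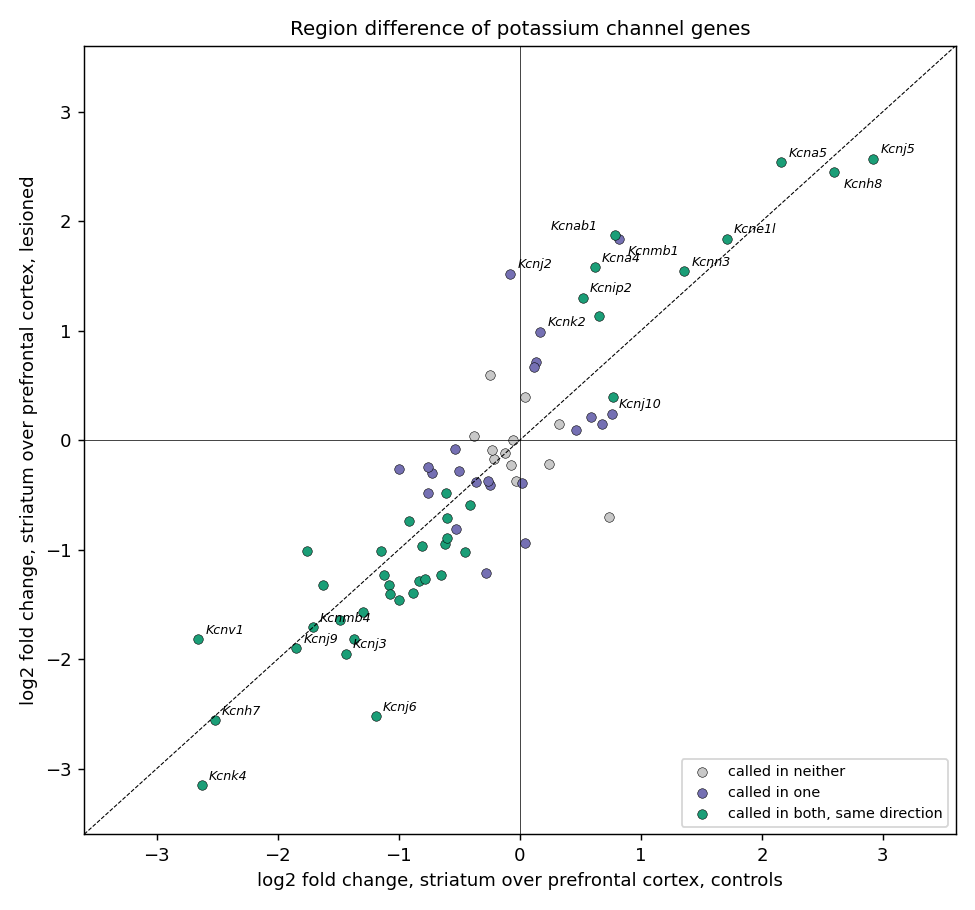
Log2 difference of the members described here, striatum minus prefrontal cortex, in the control libraries (x axis) and in the lesioned libraries (y axis), with members called in either direction coloured. Most members lie below 0 on both axes, Kcnk4, Kcnh7 and Kcnv1 among the lowest and Kcnj5, Kcnh8 and Kcna5 among the highest.

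Region calls in the same direction were shared by 30 lower members, 83.3% of those in controls and 78.9% of those after lesion, and by 10 higher ones, 71.4% and 66.7%. Over all genes tested the shares were 75.6% and 70.6% of the lower calls and 72.5% and 68.4% of the higher ones. No member was called in opposite directions. Kcnj2 was called in the lesioned groups and not in controls. After lesion it was 2.87 times higher in STR (log2 difference 1.52, SE 0.28, adjusted p = 0.00377 in edgeR), against a log2 difference of -0.08 (SE 0.14) in controls. The test of that difference is the interaction given above, which it did not pass. Kcnj6 was 2.29 times lower in STR in controls and 5.73 times lower after lesion, and Kcnk4 was 6.21 and 8.85 times lower. Control STR 2, the library with cortical markers, was the highest control STR library in both genes. Without it the control log2 difference of Kcnk4 was -3.23, against -3.15 (SE 0.17) after lesion. That of Kcnj6 in controls ran from -1.65 to -0.99 with each library left out in turn, against -2.52 (SE 0.22) after lesion. Neither gene passed the interaction test. Kcnab1 was 1.73 times higher in STR in controls and 3.65 times higher after lesion, where its log2 difference of 1.87 (SE 0.29) became 1.42 without lesioned STR 1. Kcnj3 and Kcnk12 were at -1.95 (SE 0.15) and -1.82 (SE 0.19) after lesion, and Kcnmb1, whose locus overlaps that of Kcnip1, was at 1.84 (SE 0.32).

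Proteins with other names that bind, cluster or complete potassium channels were read from a list of 15 genes, of which 13 could be tested. In lesioned PFC 3 of the 13 were called, each of them higher, against 3.45% of all genes, and 0 in the 12-library fit. Cntn2, an axonal adhesion protein that clusters Kv1 channels, differed by 0.29 (SE 0.05, adjusted p = 0.00734 in edgeR). Ank3, the scaffold of the axon initial segment that anchors Kv7 channels, differed by 0.21 (SE 0.05, adjusted p = 0.019). Abcc8, the sulphonylurea receptor of ATP-sensitive channels, differed by 0.31 (SE 0.07, adjusted p = 0.0247), and its pore partner Kcnj11 had a difference of 0.17 (SE 0.07) that did not pass. The Kv4 partners Dpp6 and Dpp10 had differences of -0.03 and 0.09, and Lgi1 of -0.03. In lesioned STR edgeR called 0 of the 13 (4 at an unadjusted p below 0.05), DESeq2 1, the 12-library fit 2 and limma-voom with sample weights 0. The smallest p was that of Cntn2 (0.51, SE 0.12). Between the regions 5 were called higher and 3 lower in control STR, among them Cntnap2 (0.48, SE 0.11) and Dpp10 (-0.74, SE 0.16), and 5 and 5 in the lesioned groups. Over all genes 42.3% were called in controls and 45.2% in the lesioned groups.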

How the data were processed

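RNA of prefrontal cortex and striatum was sequenced in 12 libraries (RIN of at least 8.9, 500 ng total RNA, a stranded mRNA kit, 101-base paired reads, per the labels). The authors aligned reads with STAR 2.7.1a to mm10 and counted with featureCounts, per the submitters' processing notes. The deposited values are whole-number counts per gene symbol. No source used here gives the annotation, strand setting or multi-mapping rule. Such a setting decides the counts of genes that overlap an antisense gene. Besides Kcna6, antisense genes overlap 31.1% of the exon length of Kcnj3, 20.8% and 10.7% of that of Kcnmb4 and 12.2% of that of Kcnk2. Catsperz overlaps 13.1% of the exon length of Kcnk4 on the same strand. Rows holding only multiples of 11 (1830 of 21872 symbols) were dropped before all tests.

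Each comparison used edgeR 4.0.16 (R 4.3.3): TMM factors, filterByExpr, and a two-sided quasi-likelihood test on its own 6 libraries (12 for the interaction), with Benjamini-Hochberg adjustment over all genes tested and calls at 0.05. Printed SEs are the log2 difference over the square root of F. CPM values are counts over the library total, without TMM, so a printed fold can differ from a ratio of CPM. Counts of 15078631 to 20925452 per library make 3 counts worth 0.143 to 0.199 CPM, which covers counting error only. Gene positions, exon lengths and GC came from GENCODE M21 (mm10) for all 76 members.

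Alternatives were RLE factors, DESeq2 1.42.0, limma 3.58.1 voom with and without weights, other filters, other treatments of the multiples of 11, all 12 libraries in 1 fit, a replicate block, a GC and length correction (loess, span 0.5), and libraries left out. Members named with values were those called, the 12 of smallest p in each lesion comparison, up to 8 per direction in each comparison of regions, the 6 of smallest p in the interaction, and 22 genes of textbook interest whatever their values. Other genes (Kcnc2, Kcnc4, Kcng2, Kcnh3, Kcnj11, Kcnv1 and the like) were named after their values were seen. Some members enter the counts, and their own values are not reported here. The members, the marker and partner lists and the tests were chosen with earlier results of these data known.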

Additional observations from a re-analysis of the deposited data

How the results depend on the processing

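Counts of called members depended on the estimate of the spread. In prefrontal cortex edgeR called 14, but 0 with all 12 libraries in 1 fit (14 at an unadjusted p below 0.05), and 6 to 21 with each library left out. In striatum edgeR called 0, also with any library left out, and limma-voom without weights called 0. DESeq2 called 5, limma-voom with sample weights 1 and the fit of all 12 libraries, with its smaller shared spread, 9. For the interaction edgeR called 0, DESeq2 2, limma-voom with sample weights 5 and limma-voom with group weights 0. Without lesioned STR 1 and control STR 2 edgeR called 4. With each library left out, 0 to 6 were called, the 6 without lesioned STR 2. The cause was not tested. Shares of all genes are not given for the fits with libraries left out or for the unadjusted count. Region counts ran from 46 to 56 in controls and from 45 to 63 after lesion with a library left out, within 1.5 times of 50 and 53. With the multiples of 11 kept, prefrontal calls were 11. No alternative changed the direction of a named member that was called.

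Libraries of the same number did not deviate together (correlations of -0.112 to 0.092 in all comparisons), so numbers were not taken as pairs. With a replicate block 14 members were called in prefrontal cortex (Kcnv1 gained), 0 in striatum, 51 and 52 between regions, and 0 in the interaction.

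Log2 differences near 0 changed sign in uncalled members. In prefrontal cortex with each library left out, Kcnj16 ran from -0.039 to 0.046, Kcna4 from -0.054 to 0.051, Kcnn2 from -0.052 to 0.042, Kcnk2 from -0.034 to 0.051 and Kcnab1 from -0.14 to 0.094. In striatum Kcnj9 ran from -0.073 to 0.18 and Kcnn2 from -0.17 to 0.15. In prefrontal cortex Kcnj16 was -0.011 and Kcnab1 0.036 with voom sample weights. Kcna4 was 0.0016 with RLE factors, 0.002 with DESeq2, 0.00035 without a filter, 7.5e-05 with the CPM filter, 0.013 with all 12 libraries, and 0.0047 and 0.0038 with the GC and length correction without and with the replicate block. Kcnn2 was 0.0044 with all 12 libraries. In striatum without lesioned STR 1 and control STR 2, Kcna2 was -0.019 and Kcnn2 0.16, and Kcnn2 was 0.11 with voom sample weights.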
